A study of Mus musculus with 14 samples.

Results

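RNA sequencing compared hematopoietic stem and progenitor cells (HSPCs) of Mir139 knockout (Mir139KO) mice with those of wild-type (WT) mice. The comparison rests on 8 of the 14 libraries of the series, 4 per genotype, taken from the labels. Genes entered the test when at least 4 of these 8 libraries held at least 10 counts, which kept 15056 of the 52550 genes in the table. All mice were C57BL/6, between 8 and 20 weeks old, and the HSPCs came from femurs and tibias by depletion of cells carrying lineage antigens (CD3e, CD11b, B220, Ly-6G/C and TER-119). The knockout animals carried a deletion of the Mir139 gene made by a paired-nickase form of Cas9 with 4 guide RNAs that flank the gene, and their line was bred over several generations before use. No other allele or treatment was given for either group. The number of mice behind each library is not stated, so the p-values measure the spread between libraries, which may be partly technical. The labels also carry number codes of unstated meaning: WT1 and WT2 share one, KO1 and KO2 another, and KO3 and KO4 another. The 4 libraries of a genotype may thus not be 4 independent units. No code occurs in both genotypes, so genotype cannot be told apart from what the codes mark. The 6 remaining libraries hold cells transformed with the MLL-AF9 fusion gene and enter the comparison nowhere.

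MicroRNAs are short RNAs that guide Argonaute proteins to messenger RNAs, mostly through pairing of a seed near the 5′ end of the microRNA with the 3′ untranslated region (UTR). Pairing shortens the life of the message or lowers its translation, so loss of a microRNA is usually read as a rise of messages that carry seed matches. Mir139 lies in an intron of Pde2a, a cyclic nucleotide phosphodiesterase gene, and gives rise to miR-139-5p and miR-139-3p, which are studied as tumor suppressors in leukemia and solid cancers.

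The Mir139 hairpin gene spans chr7:101475376-101475443 on the plus strand of GRCm38. Its mature products are shown first, since every target prediction below follows from their seeds. They are taken from RefSeq (GRCm38.p6), and the capitals mark bases 2 to 8, the seed.
mmu-miR-139-5p, chr7:101475382-101475403: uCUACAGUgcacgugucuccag
mmu-miR-139-3p, chr7:101475418-101475439: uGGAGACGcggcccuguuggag
The arms have different seeds, so their predicted target sets were counted separately.

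The 4 guides that made the deletion are shown because they define the allele. They are written as in the study's oligonucleotide list, with the side of Mir139 and the strand it gives, and without capitals because no genome sequence was used here to place them.
Guide 5 prime plus: gtcagtacagtgggagtgccg
Guide 5 prime minus: ggtgatagagagtgggaagg
Guide 3 prime plus: gtgagtgaaaggcacgtctc
Guide 3 prime minus: ggtgtaaagaccgggatgta
The edges of the deletion are not given in the sources used here.

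The 3 messages that the study names as miR-139 targets, Eif4g2, Hpgd and Ptprt, were scanned for matches to the miR-139-5p seed in their longest annotated 3′ UTR. Capitals below mark the match, on the strand of the message. A full match is an 8-mer (ACTGTAGA), and shorter ones are the 7-mers ACTGTAG and CTGTAGA.
Eif4g2, bases 350 to 357 of a UTR of 4942: tagcaacactgaatACTGTAGAgatgcact
Ptprt, bases 1014 to 1020 of a UTR of 7526: ccataaaaagacccACTGTAGgatgacaca
Hpgd had no match, not even of the 6-mer CTGTAG, in its annotated UTR of 838 bases. This says only that those letters are not in that window.

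The next 5 targets, named in other work, are shown because they give the clearest matches or the values discussed below. Cxcr4, the chemokine receptor that holds HSPCs in the marrow, carries a pair of adjoining 8-mers.
Cxcr4, bases 267 to 282 of a UTR of 644: gtgtaggACTGTAGAACTGTAGAggaagaa
Igf1r, bases 2596 to 2603 of a UTR of 7267: tacctgttttaatcACTGTAGAaaagcccc
Jun, bases 370 to 377 of a UTR of 1233: aaactgcaatagagACTGTAGAttgcttct
Fos, bases 537 to 543 of a UTR of 815: agctatatccatgtACTGTAGtccttcagc
Foxo1, bases 219 to 225 of a UTR of 6240: gcaggttttgtgctcCTGTAGAtaaggact
Among the genes tested that have an annotated 3′ UTR, 4.42% held the 8-mer and 22.46% held an 8-mer or a 7-mer. A match is therefore a common property and not in itself a sign of regulation.

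The libraries held 39515966 to 45877994 counts in WT and 35016668 to 42404735 in Mir139KO, a difference within the spread (exact permutation test over libraries, two-sided, p = 0.114, where the smallest possible value is 0.0286). A count of 3, used here as the floor of detection, equals 0.0510 to 0.105 CPM (counts per 1e6, scaled by total counts and TMM factors as are all CPM here), which covers counting error only. One noncoding gene, Gm26917, took between 17.0% and 35.4% of all counts and split the libraries into a set under 25% (WT1, WT2, KO2 and KO3, at 17.0% to 21.9%) and a set above it (WT3, WT4, KO1 and KO4, at 32.7% to 35.4%). Both sets hold 2 libraries of each genotype, and the share did not separate the genotypes (exact permutation test, p = 0.629). The first principal component of log2 CPM, 69.9% of the variance, separated these sets, and the second component held 8.11%. Every one of the 8 libraries correlated best with a library of its own set, and for 5 of them that library was of the other genotype. Genotype accounted for a median of 2.03% of a gene's variance and the set for 75.03%, and edgeR called 10449 genes (69.4%) different between the sets. Results below are therefore given over all 8 libraries, and the main ones also with the set as a covariate or within each set. What made the sets differ was not tested.

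**Figure D1:**
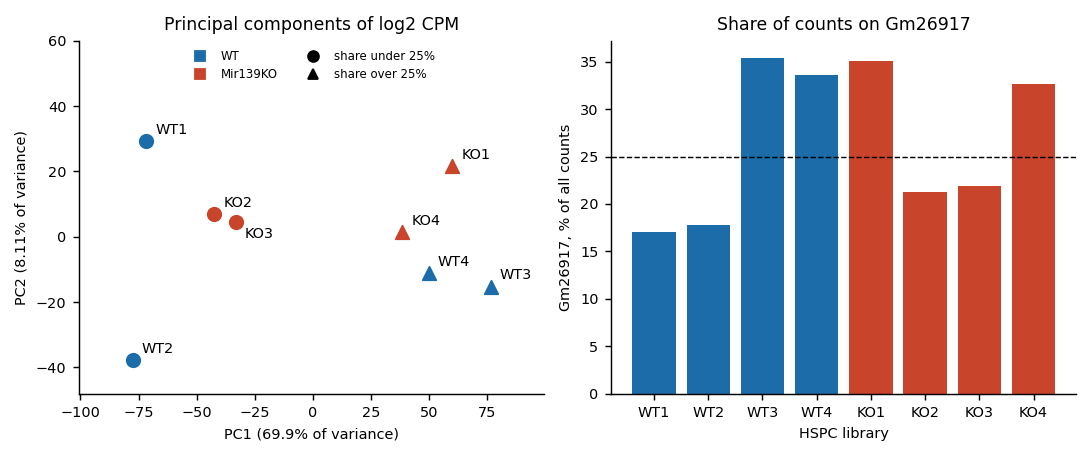
Left, scores of the 8 libraries on the first and second principal components of log2 CPM, with the percent of variance on each axis. Right, the percent of each library's counts that fell on Gm26917, with the split at 25% drawn as a line; the 4 libraries above the line lie on one side of the first component and the 4 below it on the other, with 2 of each genotype on both sides.

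The labelled cell type was checked against defining markers. Kit, the stem cell factor receptor of early progenitors, had 117 to 216 CPM, and Kit at 18.7 CPM per kilobase and Cd34 at 4.70 were detected in all 8 libraries. Per kilobase of exon, genes of maturing cells were more abundant than Kit: Mpo of granulocyte progenitors had a mean of 1265 CPM per kilobase, S100a9 of neutrophils 1545 and Klf1 of erythroid progenitors 119. Cd3e of T cells, at 1.90, was low but present. The libraries hold lineage-depleted marrow rather than purified stem cells, and in such bulk samples fewer cells of a type and less RNA per cell cannot be told apart.

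No gene was called different between Mir139KO and WT HSPCs. With edgeR's quasi-likelihood test and Benjamini-Hochberg adjustment, 0 of 15056 genes (0.0%) had an adjusted p under 0.05, and the smallest adjusted p was 0.9999. At an unadjusted p under 0.05 there were 86 genes (0.571%), 49 higher in Mir139KO (0.325%) and 37 lower (0.246%). DESeq2 called 0 genes, with 90 (0.598%) at an unadjusted p under 0.05, 61 higher (0.405%) and 29 lower (0.193%), and with a smallest adjusted p of 0.0524. Limma-voom called 0 as well, with 76 (0.505%), 48 of them higher and 28 lower. Scaling to total counts alone moved the median over the 15056 genes from -0.034 to -0.129 and turned the split to 43 higher and 62 lower. Fold changes were small for most genes, since 91.98% lay under 0.5 on the log2 scale and 99.1% under 1, and 81 of the 138 genes at or beyond 1 were immunoglobulin genes. The immunoglobulin loci rearrange in B cells and encode the antibodies that plasma cells secrete.

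With the Gm26917 set as a covariate, edgeR still called 0 genes (smallest adjusted p = 0.995), while the genes at an unadjusted p under 0.05 numbered 536 (3.56%), of which 316 were higher (2.1%) and 220 lower (1.46%). The 2 fits shared 72 such genes, all with the same direction in both. The share of genes with a positive fold change was 42.8% without the covariate and 49.8% with it. The 4 values of one genotype lay entirely above or below those of the other for 77 genes (0.511%), 29 higher in Mir139KO (0.193%) and 48 lower (0.319%), and 10 of the 29 were immunoglobulin genes. Scaled to total counts alone, 98 genes did not overlap.

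The precision of the comparison depended on the level of a gene and on the set. The 95% interval of limma-voom lay within a 2-fold change either way for 7289 genes (48.4%) and within 1.5-fold for 1350 (8.97%). With the set as a covariate these numbers were 12533 (83.2%) and 7899 (52.5%), and the median width of the interval went from 1.70 to 0.800 on the log2 scale. Among the 2290 genes whose log2 CPM averaged 6 or more, the covariate fit placed 98.1% within 2-fold, against 68.7% of the 6967 genes that averaged under 3. For low genes a difference of 2-fold was often not detectable in these libraries. An interval of the covariate fit covers only an effect shared by both sets.

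**Figure D2:**
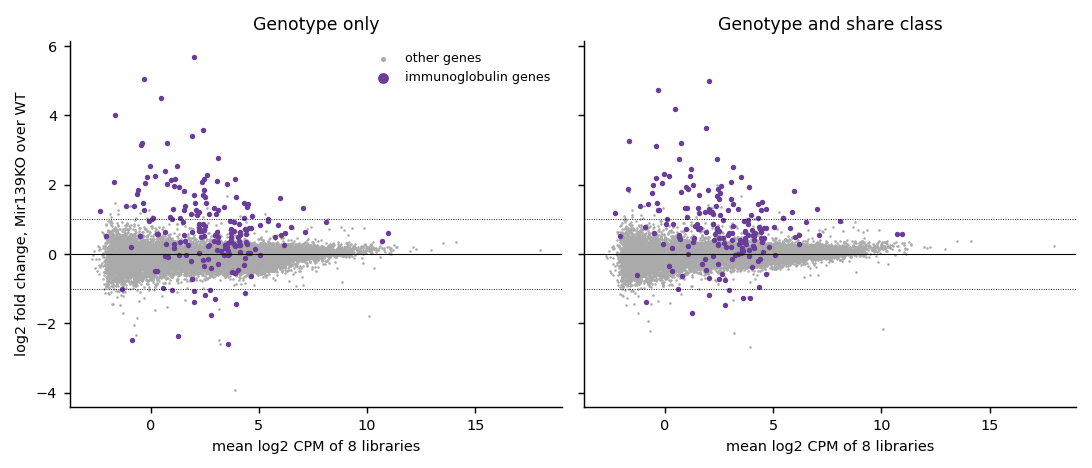
Log2 fold change (Mir139KO over WT) of the 15056 genes tested against their mean log2 CPM, without (left) and with (right) the Gm26917 set as a covariate, with immunoglobulin genes in purple and dotted lines at a 2-fold change. Most points lie between the lines in both panels, and many of the genes beyond them are immunoglobulin genes above the upper line.

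Effects within the 2 sets often went opposite ways. Of 14485 genes tested in both, 36.7% had the same sign in the set under 25% (WT1 and WT2 against KO2 and KO3) and in the set above it. At an unadjusted p under 0.05 there were 3279 of 15640 genes (21.0%) in the former and 558 of 14699 (3.8%) in the latter, and 13 of the 100 genes that passed in both had the same sign. In the former, WT1 and WT2 share a label code of unstated meaning that neither KO2 nor KO3 carries. Genotype cannot be told apart there from what that code marks, and WT1 and WT2 may not be independent. No code occurs in both genotypes, so genotype and codes cannot be told apart in the other set or over all libraries either. A test of the difference between the sets, added after seeing the data, called 0 genes in edgeR (smallest adjusted p = 0.114), with 2457 at an unadjusted p under 0.05. One antibody gene was called within each set, or 0.00639% of the genes tested in the former and 0.0068% in the latter. Ighv7-1, a heavy-chain variable segment, had 559 and 506 counts in WT1 and WT2 and 1954 and 2198 in KO2 and KO3 (log2 fold change 2.23, edgeR adjusted p = 0.0409), but 711 and 1315 in WT3 and WT4 and 715 and 1627 in KO1 and KO4. Ighv3-1 had 219 and 166 counts in WT3 and WT4 and 40 and 35 in KO1 and KO4 (log2 fold change -2.15, adjusted p = 0.0377), but 81 and 33 in WT1 and WT2 and 971 and 82 in KO2 and KO3. Neither difference was seen in the other set, and both genes were named after their values were seen.

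The targeted gene itself could not be used to check the labels. Mir139 had 0 counts in all 8 libraries, WT included, and its hairpin of 68 bases is short for libraries of this kind. Its host Pde2a (chr7:101421691-101512827) had between 0 and 2 counts. Gm45837, ENSMUSG00000030653 (chr7:101410886-101512819, plus strand), is annotated as a protein-coding gene that runs from the end of Arap1 across Pde2a and Mir139 on the same strand. Reads there cannot always be assigned to 1 gene, so the counts of Gm45837 and of Pde2a are both uncertain. The low Pde2a counts are therefore not read as a silent gene, and the study reports Pde2a in WT HSPCs by RNA-seq and qPCR.

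Gm45837 had 78, 52, 52 and 30 counts in the WT libraries and 19, 29, 38 and 26 in the Mir139KO libraries. Scaled by total counts and TMM factors (which ran from 0.756 to 1.35) this is 1.33, 1.00, 1.44 and 0.911 CPM in WT and 0.665, 0.678, 0.757 and 0.843 CPM in Mir139KO. On this scale the 4 Mir139KO values lay below the 4 WT values, although KO4 and WT4 were close. Scaled to total counts alone the groups overlapped, with 0.735 CPM in WT4 below 0.828 in KO2 and 0.896 in KO3. The log2 fold change was -0.67 ± 0.27 (SE), with an unadjusted edgeR p of 0.0328 that did not survive adjustment. With the set as a covariate it was -0.67 (edgeR, unadjusted p = 0.0181), and within the sets it was -0.68 and -0.66. This is the one gene that physically spans the deletion and passed the filter, and which of its exons held the reads was not tested.

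Within 250 kb of Mir139 lay 17 annotated genes, of which 9 were tested and 5 were at 0 in all 8 libraries. None was called, and the median log2 fold change of the 9 was -0.004, against -0.034 over all genes tested. An unadjusted p below 0.05 was reached by 2 of the 9, against 0.571% of all genes tested. Beside Gm45837 the other was Art2b (chr7:101576970-101585600), an ADP-ribosyltransferase gene of the T-cell surface that lies 101.5 kb away. Art2b had 1.04, 0.943, 0.469 and 0.850 CPM in WT and 0.280, 0.561, 0.319 and 0.584 CPM in Mir139KO, from 8 to 61 counts. The groups overlapped, and the log2 fold change was -0.92 ± 0.37 (edgeR, unadjusted p = 0.0329).

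The abundant neighbours did not differ beyond their spread. Clpb, a mitochondrial chaperone gene on the far side of Art2b, had 59.3 ± 17.1 CPM in WT and 59.1 ± 11.7 in Mir139KO (SD, n = 4), with a 95% interval of -0.20 to 0.24 on the log2 scale in the covariate fit. Arap1, which regulates small GTPases and ends where Gm45837 begins, had 171.7 ± 68.7 and 191.4 ± 68.7 CPM, with an interval of -0.09 to 0.44. Without the covariate the intervals were -0.583 to 0.63 for Clpb and -0.645 to 1.001 for Arap1. Stard10, a lipid transfer gene, had a log2 fold change of 0.04, Atg16l2 one of 0.28 and Fchsd2 one of -0.35. The remaining tested genes, Gm45620 and Gm7027, had 0.17 and -0.16.

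The messages named by the study as miR-139 targets showed no difference between Mir139KO and WT HSPCs beyond the spread of the libraries. Eif4g2, a translation initiation factor that works without cap binding, had 538.8, 682.6, 89.1 and 143.3 CPM in WT and 143.9, 405.2, 439.4 and 196.2 CPM in Mir139KO. Its level followed the Gm26917 set in both genotypes, with the libraries under 25% above 400 CPM and the others under 200. The log2 fold change was -0.30 ± 0.65 (edgeR, unadjusted p = 0.659). Limma-voom, which gives the intervals, put the log2 fold change at 0.035. Its 95% interval ran from -1.50 to 1.57, which includes a 2-fold change in both directions. With the set as a covariate the log2 fold change was 0.01, with a 95% interval of -0.58 to 0.60. That interval leaves out a 2-fold change only for an effect shared by both sets. Within the sets the log2 fold change was -0.51 and 0.53, opposite values that the covariate fit averages.

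Hpgd, which inactivates prostaglandin E2, had 2.26, 1.79, 0.607 and 1.28 CPM in WT and 1.51, 1.92, 1.27 and 1.30 CPM in Mir139KO, from 22 to 133 counts. The Mir139KO values lay inside the WT range. The log2 fold change was 0.01 ± 0.39, and 0.08 with the set as a covariate (edgeR). Limma-voom gave 0.031 with the covariate, with an interval of -0.65 to 0.71. Ptprt, a receptor tyrosine phosphatase that acts on STAT3, had 9, 6, 1 and 0 counts in WT and 0, 0, 2 and 1 in Mir139KO and did not pass the filter. It was at or under the floor of 3 counts in 6 of the 8 libraries, so no fold change is given.

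Of 13 miR-139 targets named in other work, all were tested, 0 were called and 4 were higher in Mir139KO. Their median log2 fold change was -0.087, against -0.034 over all genes, and -0.022 with the set as a covariate. The sign turned between the sets: in the libraries under 25% Gm26917 the median was -0.225 with 4 of 13 higher, and in those above it 0.135 with 11 of 13 higher. Leaving out 1 library moved it between -0.273 (WT3) and -0.005 (WT2). Cxcr4, with its pair of adjoining matches, had 269.1, 274.6, 355.3 and 234.4 CPM in WT and 242.5, 323.2, 302.1 and 289.5 CPM in Mir139KO. The ranges overlapped almost wholly, and the interval in the covariate fit ran from -0.27 to 0.35. Igf1r, the receptor of insulin-like growth factor 1, had 155.8 ± 45.3 CPM in WT and 146.7 ± 26.9 in Mir139KO (SD, n = 4), with an interval of -0.31 to 0.18. Notch1, a receptor of lymphoid fate choice, had a log2 fold change of 0.04 and Mcl1, an inhibitor of apoptosis, one of -0.07.

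Of these 13 genes, 3 had an unadjusted p under 0.05 with the set as a covariate, against 3.56% of all genes, and 0 had one without it. Jun, a subunit of the AP-1 transcription factor, had 10.7, 12.7, 28.7 and 26.1 CPM in WT and 37.0, 19.4, 31.1 and 28.7 CPM in Mir139KO. Each Mir139KO value was above the WT values of its own set, though KO4 and WT3 were nearly equal. Its log2 fold change was 0.57 ± 0.38 without the covariate (edgeR, unadjusted p = 0.162) and 0.68 ± 0.21 with it (unadjusted p = 0.00991). Fos, its AP-1 partner, had 17.8, 12.5, 23.9 and 15.1 CPM in WT and 32.5, 17.4, 33.0 and 21.2 CPM in Mir139KO, a log2 fold change of 0.60 in the covariate fit (unadjusted p = 0.0409). Foxo1, a transcription factor of quiescence and B-cell development, had 23.9, 22.2, 10.1 and 8.77 CPM in WT and 6.61, 12.6, 15.01 and 10.5 CPM in Mir139KO. It was lower, by -0.45 in the covariate fit (unadjusted p = 0.0387), so the 3 did not share a direction. The other members not yet given lay between -0.44 (Met) and -0.02 (Elavl1), all below 0: Rock2 at -0.10, Tcf4 at -0.21, Zeb1 at -0.30 and Zeb2 at -0.30.

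**Figure D3:**
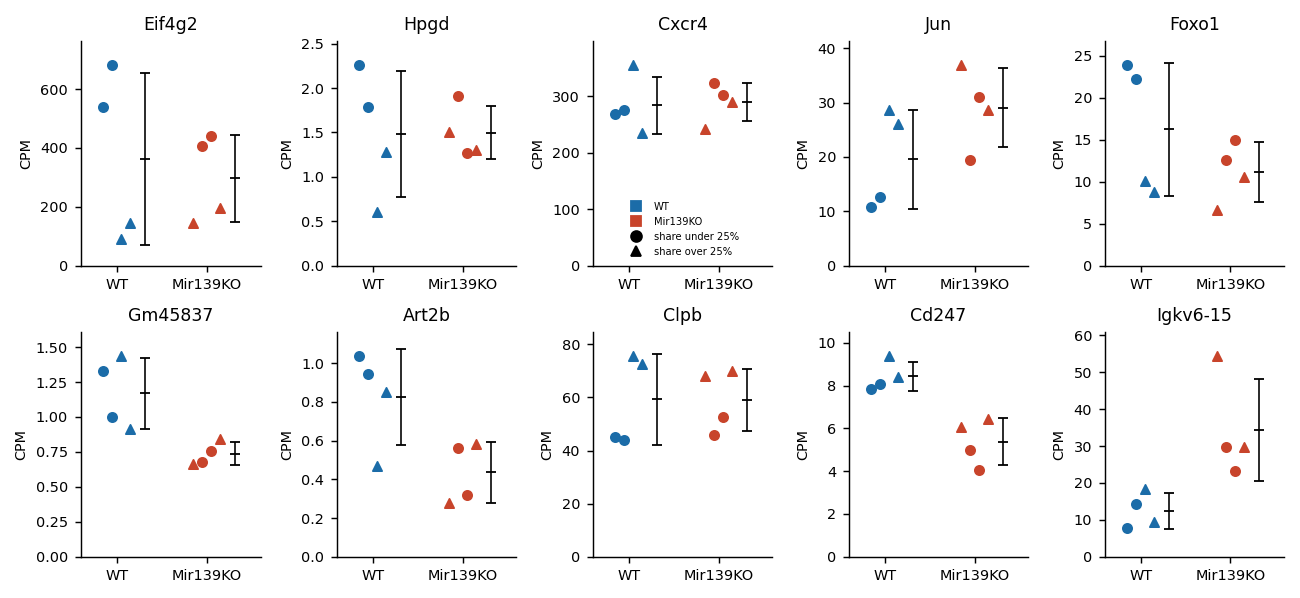
CPM in each of the 8 libraries for 10 genes (one panel each, linear axes), with circles for the libraries under 25% Gm26917, triangles for those above it, and the mean ± SD of each genotype (n = 4). Eif4g2 and Foxo1 differ between circles and triangles within a genotype, Cxcr4 and Clpb overlap between genotypes, and Gm45837, Cd247 and Igkv6-15 show no overlap between WT and Mir139KO.

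Across all messages, those with a miR-139-5p seed match did not have higher fold changes than those without one. The longest annotated 3′ UTR (GENCODE) was used for each of 12656 tested genes that have one, on the strand of the message only. The 2842 genes with an 8-mer or 7-mer match had a median log2 fold change of -0.0907, and 32.6% of them were above 0. The 9814 genes without one had a median of -0.0153, with 46.3% above 0. The 559 genes with an 8-mer had a median of -0.118. An unadjusted p below 0.05 was reached by 11 genes with a match (0.387%) and 22 without (0.224%), and no gene of either kind was called.

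The length of the UTR moved with the result. UTRs with a match had a median length of 2442 bases and those without one 875, and across genes the Spearman correlation of UTR length with the log2 fold change was -0.308 (12656 genes measured in the same libraries). Among UTRs of at least 1805 bases the medians were -0.132 for 1890 genes with a match and -0.101 for 2328 without. Among those of middle length they were -0.0346 and -0.0216, and among UTRs of at most 670 bases 0.0181 and 0.0284.

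The sign of the contrast also depended on the Gm26917 set. In the libraries under 25% the medians were -0.155 with a match and 0.0271 without, and in those above 25% they were 0.0425 and 0.0118. The correlation of UTR length with fold change was -0.351 in the former and 0.109 in the latter. With the set as a covariate the medians were -0.0466 and 0.0155. For miR-139-3p, whose 8-mer is CGTCTCCA and whose 7-mers are CGTCTCC and GTCTCCA, the 2074 genes with a match had a median of -0.0610 and the others -0.0251 over all 8 libraries, but the order turned within each class of UTR length. The medians were -0.0949 with a match and -0.124 without among long UTRs, -0.0210 and -0.0263 among those of middle length, and 0.0469 and 0.0269 among short ones. The part of UTR length and of the set in these differences was not tested.

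**Figure D4:**
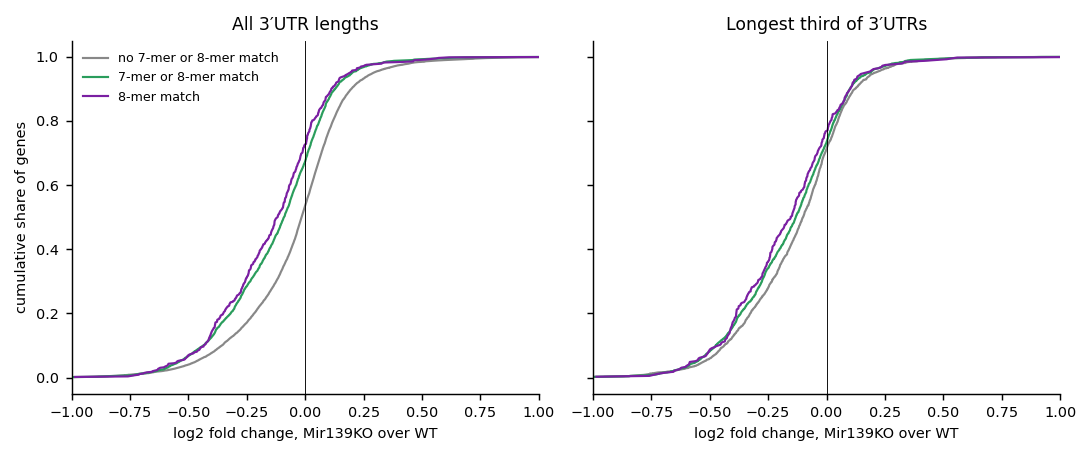
Cumulative share of genes by log2 fold change (Mir139KO over WT) for 3′ UTRs with and without an 8-mer or 7-mer match to miR-139-5p, for all UTRs (left) and for UTRs of at least 1805 bases (right). The curve of the genes with a match lies to the left of the other over all UTRs (medians -0.0907 and -0.0153) and close to it among long UTRs (-0.132 and -0.101).

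The proteins that make and use microRNAs were tested next. All 13 genes of this list passed the filter, 3 were higher in Mir139KO, 0 were called and the median log2 fold change was -0.116, or -0.106 with the set as a covariate. It was -0.234 in the libraries under 25% Gm26917 and -0.044 in those above, and leaving out 1 library moved it between -0.293 (WT3) and -0.02 (WT1 or KO1). Drosha and Dgcr8, which cut the primary transcript, had -0.13 and -0.10. Xpo5, the exporter of precursors, had -0.08. Dicer1, which releases the mature duplex, had 57.8 ± 36.2 CPM in WT and 45.5 ± 18.0 in Mir139KO (SD, n = 4) and a log2 fold change of -0.35 ± 0.49. Ago1 to Ago4, the effector proteins, lay between -0.17 (Ago2) and 0.05 (Ago1), and their partners Tnrc6a, Tnrc6b and Tnrc6c at -0.44, -0.47 and -0.17. In the covariate fit the 95% interval of each of the 13 lay within a 2-fold change either way. Without the covariate 8 of the 13 did, and the covariate fit covers only an effect shared by both sets.

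Over all 27 gene lists, 333 of the 351 members were tested and 0 were called. Without the covariate 6 had an unadjusted p under 0.05 (1.8%, against 0.571% of all genes tested), and 4 did not overlap between genotypes (0.511% of all genes tested). Of the other 18, 13 were listed at 0 in all 8 libraries, among them Irf8, Alas2, Rag1, Igkc, Fanca and Eif2s2. The reason for these zeros is not known, and they are not read as absent expression.

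Stem and progenitor genes were centered on no difference. The list has 18 genes, 9 of them higher, with a median log2 fold change of -0.007. Kit had 161.8, 199.0, 151.6 and 141.3 CPM in WT and 117.3, 193.0, 216.0 and 154.7 CPM in Mir139KO. Ly6a, which encodes the stem cell antigen Sca-1, was highest at 0.42 ± 0.38 (edgeR, unadjusted p = 0.294, and 0.0492 with the covariate), and Lmo2, a transcription cofactor of stem cells, lowest at -0.40 ± 0.42. With the set as a covariate, 17 of the 18 intervals lay within 2-fold, and without it 10 did.

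Granulocyte genes had positive values over all 8 libraries, with a wide spread. All 6 tested genes of the primary granules, made at the promyelocyte stage, had positive values between 0.10 (Mpo) and 0.22 (Prtn3), with a median of 0.171, and 0 had an unadjusted p under 0.05. That median was 0.446 in the libraries under 25% Gm26917 and 0.038 (4 of 6 higher) in those above, and it was -0.019 without KO1, 0.001 without WT1 and 0.351 without WT4. All 15 genes of later neutrophils did too, with a median of 0.717 and 0 at an unadjusted p under 0.05. Their summed level was 8857, 600.1, 2679 and 4962 CPM in WT and 11430, 6189, 6067 and 4087 CPM in Mir139KO. The lowest sum was WT2 and the highest KO1, and WT1 exceeded 3 of the Mir139KO libraries. Without WT2 the median was 0.326, without KO1 0.28 and without WT1 1.207, and it was 0.542 to 0.882 without any other library. Camp, an antimicrobial peptide of secondary granules, had 288.0 ± 216.9 CPM in WT and 583.2 ± 403.2 in Mir139KO (SD, n = 4; log2 fold change 1.02 ± 0.80), and Mmp8, a neutrophil collagenase, had a log2 fold change of 0.09 (-0.18 in the libraries under 25% Gm26917). The depletion kit removes cells with Ly-6G/C and CD11b, and Ly6g had 0.91.

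Plasma cell genes and immunoglobulin segments were higher in Mir139KO in most cases. Of 13 tested plasma cell genes 12 were higher, with a median of 0.521 (0.585 with the covariate), and 1 had an unadjusted p under 0.05 (0.571% of all genes), or 7 with the covariate (3.56% of all genes), all higher. Their summed level was 3200, 3360, 7331 and 2971 CPM in WT and 6380, 4481, 5089 and 8669 CPM in Mir139KO. WT3 lay above 3 of the Mir139KO libraries and the other WT libraries below all of them. Without WT3 the median was 0.899 and without KO1 0.332, and it was 0.393 to 0.686 without any other library. Ighg1, the constant region of IgG1, had 35.2, 145.2, 87.8 and 92.3 CPM in WT and 368.1, 192.6, 169.2 and 175.5 CPM in Mir139KO. The genotypes did not overlap, and the log2 fold change was 1.33 ± 0.43 (edgeR, unadjusted p = 0.0127, not called). Genes of the secretory machinery had smaller values: Mzb1, a chaperone of antibody assembly, had 5.41, 7.89, 19.5 and 10.5 CPM in WT and 29.3, 9.93, 10.6 and 20.4 in Mir139KO (log2 fold change 0.70), and Xbp1, the plasma cell transcription factor, 0.28.

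Across the 185 immunoglobulin genes tested, 1.23% of all genes, 149 were higher in Mir139KO and the median was 0.647, or 0.686 with the covariate. They supplied 39 of the 86 genes at an unadjusted p under 0.05, 38 of them higher. Igkv6-15, a kappa variable segment, had 7.67, 14.3, 18.4 and 9.32 CPM in WT and 54.4, 29.8, 23.1 and 29.7 CPM in Mir139KO. The lowest Mir139KO library lay above the highest WT library, and the log2 fold change was 1.46 ± 0.38 (edgeR, unadjusted p = 0.00349, and 0.00131 with the covariate). Ighv5-17 had 2.17, Igkv4-91 2.11 and Igkv4-68 2.78, the last with 1.34 without KO4. Segments of one family resemble each other and can share reads, so the values of single segments are uncertain. Pax5, the factor that holds B-cell identity and is absent from plasma cells, was lower, with 7.96, 3.37, 0.966 and 1.06 CPM in WT and 1.26, 1.24, 1.04 and 1.10 in Mir139KO (log2 fold change -1.53, unadjusted p = 0.0381). Only WT1 and WT2 stood apart for Pax5, and 6 of the 9 tested B-cell genes were lower, with a median of -0.100 (-0.257 with the covariate). The B-cell median was -0.466 (1 of 9 higher) in the libraries under 25% Gm26917 and 0.222 (7 of 9) in those above, and it turned to 0.074 without WT1, 0.041 without KO2 and 0.069 without KO3.

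T-cell genes had the reverse pattern, at low levels. Of 16 tested genes of T and NK cells, 14 were lower in Mir139KO, with a median of -0.266 (-0.261 with the covariate). Without the covariate 4 had an unadjusted p under 0.05 (0.571% of all genes) and with it 5 (3.56% of all genes), all lower. The genotypes did not overlap for 3, Cd3g, Cd247 and Tcf7 (0.511% of all genes). Cd247, the zeta chain of the T-cell receptor complex, had 7.86, 8.09, 9.39 and 8.41 CPM in WT and 6.05, 4.98, 4.06 and 6.45 CPM in Mir139KO. Its log2 fold change was -0.65 ± 0.26 (edgeR, unadjusted p = 0.0308), and -0.67 in the covariate fit (edgeR, unadjusted p = 0.00128). The limma-voom interval of Cd247 with the covariate was -1.004 to -0.347. It was not called in either.

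Cd8a, the co-receptor of cytotoxic T cells, had 5.89, 6.56, 9.03 and 8.38 CPM in WT and 4.06, 4.44, 3.56 and 6.29 CPM in Mir139KO, and Cd3g, a chain of the receptor complex, a log2 fold change of -0.67 ± 0.29. The overlap for Cd8a came from KO4 and WT1. Gzmb, a granule protease, had 0.17, Cd4 0.01 and Trbc2, a constant region of the receptor, -0.24. The summed level of the list was 109.5, 122.9, 223.6 and 167.2 CPM in WT and 177.2, 101.3, 93.4 and 151.1 CPM in Mir139KO, and these ranges overlapped. Within the sets the medians were -0.28 and -0.298, and the median over all libraries was -0.081 without WT3, -0.138 without KO3, -0.456 without KO1 and -0.393 to -0.223 without any other library.

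Of 14485 genes with values in both Gm26917 sets, 100 had an unadjusted p under 0.05 in both, and 13 of these had the same sign. Outside the immunoglobulin loci 9 genes were lower in both sets in this way and 0 were higher. In the single sets 21.0% (less Gm26917) and 3.8% (more Gm26917) of genes passed, and whether 9 exceeds chance was not tested. Of the 9 genes, 3, Cd3g, Cd247 and Cd8a, belong to the list of T and NK cells. The others, Lef1, Cd8b1, Gdf11, Actn2, Mkln1os and Gm8113, are named after their values were seen. Lef1, a transcription factor of T-cell precursors, had 8.15, 6.89, 6.49 and 5.34 CPM in WT and 3.499, 3.53, 4.34 and 4.31 CPM in Mir139KO (log2 fold change -0.78 ± 0.25). Its genotypes did not overlap. Gdf11, a growth factor of the TGF-beta family, had 2.02, 2.45, 1.74 and 2.09 CPM in WT and 0.910, 1.121, 1.51 and 1.07 CPM in Mir139KO (-0.84 ± 0.27). Actn2, a muscle actinin, had 31, 31, 18 and 20 counts in WT and 7, 10, 11 and 8 in Mir139KO (-1.22 ± 0.27), the smallest p of all genes without the covariate at 0.00127, and it was not called.

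**Figure D5:**
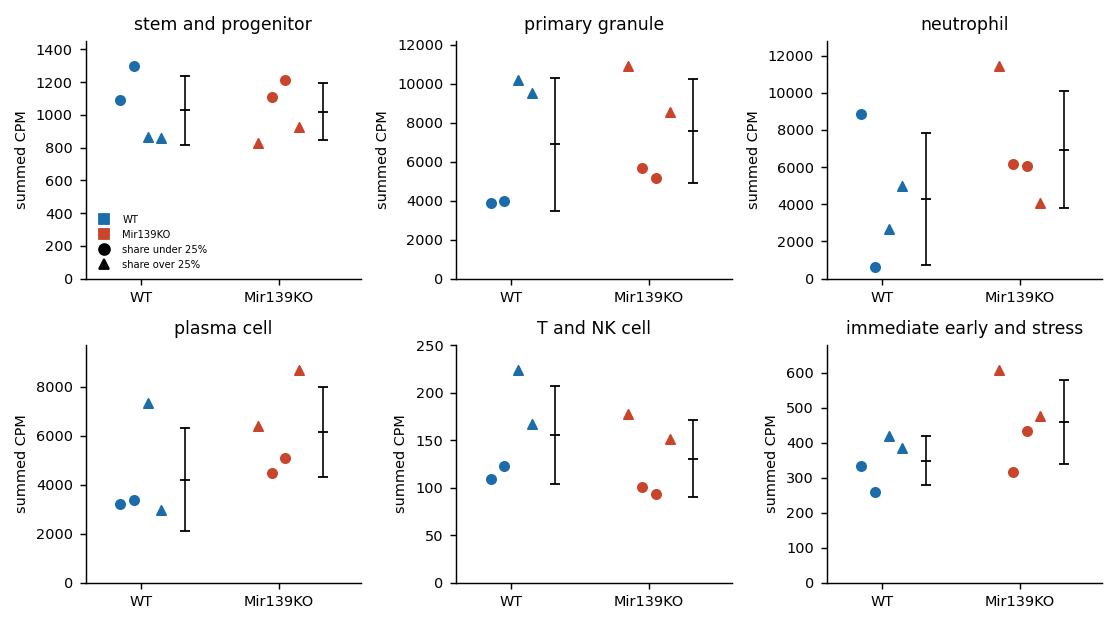
Summed CPM of 6 gene lists in each of the 8 libraries, with circles for libraries under 25% Gm26917 and triangles for those above it, and the mean ± SD per genotype (n = 4). The neutrophil sums run from 600.1 in WT2 to 11430 in KO1 and overlap between genotypes, and the plasma cell and T-cell sums overlap as well.

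Over all 8 libraries the medians of other lineages lay between -0.129 and 0.088. The median was -0.050 for 13 monocyte and macrophage genes, 0.003 for 15 erythroid genes, 0.055 for 10 megakaryocyte genes, -0.101 for 10 genes of mast cells, basophils and eosinophils, 0.088 for 10 of dendritic cells and MHC class II, and -0.129 for 10 of stroma and endothelium. Some of these medians joined opposite values in the 2 sets, given here first for the libraries under 25% Gm26917. The monocyte median was -0.332 (3 of 13 higher) and 0.162 (13 of 13), that of dendritic cells -0.170 and 0.291, and that of stroma 0.149 (6 of 10) and -0.288 (0 of 10). Without the covariate none of these 68 genes had an unadjusted p under 0.05. The Y-linked genes of the sex-linked list had a median of -0.262 and were detected in all 8 libraries.

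Immediate early and stress genes, which are switched on within minutes by growth signals or by handling of cells, were higher in Mir139KO in 16 of 18 cases. Their median was 0.441 (0.393 with the covariate), and 0 had an unadjusted p under 0.05 without the covariate and 6 with it (3.56% of all genes), all higher. The summed level was 332.4, 259.2, 420.3 and 383.8 CPM in WT and 606.7, 315.7, 433.5 and 476.4 CPM in Mir139KO. KO2 lay inside the WT range and the other Mir139KO libraries above it. Atf3, a stress-induced transcription factor, had 2.74, 0.982, 1.77 and 1.52 CPM in WT and 5.07, 2.62, 2.99 and 2.14 CPM in Mir139KO (log2 fold change 0.87 ± 0.39, unadjusted p = 0.0544). Egr3 had the lowest value, -0.25, and Hspa1a, a heat shock protein, the highest, 1.48 ± 1.29 at under 2 CPM in every WT library. Without KO1 the median was 0.177 and without WT2 0.265, and it was 0.37 to 0.597 without any other library.

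Another list, chosen from other samples, held cell cycle inhibitors and apoptosis genes. The study reports these genes as upregulated by forced miR-139 expression in leukemia cells. Here 7 of the 9 were higher in Mir139KO, with a median of 0.251 and 0 at an unadjusted p under 0.05. Most values thus had the sign that the study reports for gain of miR-139, although the gene was deleted here. Dusp1, a phosphatase of MAP kinases that is also an immediate early gene, had the highest value, 0.59 ± 0.40. Btg2, an antiproliferative gene, had 46.3 ± 8.76 CPM in WT and 63.2 ± 18.5 in Mir139KO (SD, n = 4; log2 fold change 0.45 ± 0.26, edgeR, unadjusted p = 0.12). Without KO1 the median was 0.053 and without WT2 0.083, and it was 0.209 to 0.4 without any other library.

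Growth and repair pathways showed no called gene and small medians. Of 21 tested cell cycle genes 7 were higher, with a median of -0.025, of 13 genes of the p53 response 8 were higher (0.089), and of 15 genes of Fanconi anaemia crosslink repair 2 were higher (-0.136). Trp53 had 0.07 and Cdkn1a, the p21 inhibitor it induces, 0.22. Usp1, which deubiquitinates the Fanconi protein FANCD2, had 70.1, 87.6, 10.2 and 16.7 CPM in WT and 16.8, 51.0, 39.8 and 22.0 CPM in Mir139KO. As with Eif4g2, the Gm26917 sets differed more than the genotypes.

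The pathways of the named targets were tested as lists too, together with polycomb repressive complex 2, a histone methyltransferase complex that silences genes. Of 23 translation initiation factors 9 were higher (median -0.087), of 13 prostaglandin genes 6 (-0.130) and of 12 polycomb genes 6 (-0.008). Ezh2, its catalytic subunit, had -0.21, and Ptges, a prostaglandin E2 synthase, 0.11. Slco2a1, a prostaglandin transporter, had the lowest value of its list, -0.61. Of 16 tested interferon-stimulated genes 11 were higher (0.080), but the median was -0.139 in the libraries under 25% Gm26917 and 0.337 in those above.

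Of 15 tested cyclic nucleotide phosphodiesterases, the family of the host gene Pde2a, 1 was higher, with a median of -0.240 (-0.186 with the covariate). It was -0.461 in the libraries under 25% Gm26917 and -0.129 in those above, and leaving out 1 library moved it between -0.468 (WT3) and -0.129 (WT2). None had an unadjusted p under 0.05 without the covariate. Pde3b, an enzyme that degrades cAMP, had the lowest value, with 13.3, 14, 3.23 and 4.46 CPM in WT and 3.64, 7.45, 6.59 and 3.6 CPM in Mir139KO (log2 fold change -0.72 ± 0.52). In the covariate fit it was -0.54 ± 0.21 (unadjusted p = 0.0259). Pde4a had the highest value, 0.04.

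Abundant noncoding RNAs were tested as a sign of library composition. Of 10 genes 7 were higher, with a median of 0.114. Malat1, a nuclear RNA, had 298.6, 338.4, 81.1 and 88.7 CPM in WT and 96.9, 121.2, 122.8 and 93.1 CPM in Mir139KO (log2 fold change -0.90 ± 0.47, unadjusted p = 0.0885). WT1 and WT2 stood apart from the other 6 libraries. Rn7sk and Rpph1, which polymerase III transcribes, had an unadjusted p of 0.0159 and 0.0129 in the covariate fit, with log2 fold changes of 0.37 and 0.37.

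Among genes whose log2 CPM averaged 3 or more, 5 had the smallest p-values of those lower in Mir139KO. For at least 3 of them single libraries moved the value. Grk5, a kinase of G protein-coupled receptors, had a log2 fold change of -2.58 (edgeR, unadjusted p = 0.018), with 100.3 CPM in WT3 and 3.64 to 14.1 in the other WT libraries. Without WT3 it was -0.85. The mitochondrial ribosomal RNAs mt-Rnr1 and mt-Rnr2 had -3.92 and -2.48, with 655.6 and 169.6 CPM in WT2, and without WT2 they had -0.38 and 0.93. Igkv8-19 had -2.60, with 190.8 CPM in WT3, 39.7 in WT4, and 3.37 and 3.45 in WT1 and WT2. The Mir139KO libraries held 4.91 to 20.5 CPM of it, and its log2 fold change turned to 0.66 in the libraries under 25% Gm26917. Skap1, an adaptor of T-cell receptor signaling, had 9.83 ± 1.99 CPM in WT and 7.02 ± 0.599 in Mir139KO (SD, n = 4; log2 fold change -0.49 ± 0.25).

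With the set as a covariate, the genes with the smallest p at that level were Mgl2, Igkv6-15 and S1pr2, and none was called. Mgl2, a lectin of macrophages and dendritic cells, had 6.16, 6.12, 9.11 and 7.95 CPM in WT and 12.1, 10.1, 9.92 and 11.6 CPM in Mir139KO. The genotypes did not overlap, and the log2 fold change was 0.59 ± 0.13 (edgeR, unadjusted p = 0.00117). S1pr2, a receptor of sphingosine 1-phosphate, had 20.0 ± 8.08 CPM in WT and 26.5 ± 8.64 in Mir139KO (SD, n = 4), with 0.44 ± 0.11 in the covariate fit (edgeR, unadjusted p = 0.00229) and 0.41 ± 0.36 without it (unadjusted p = 0.291).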

How the data were processed

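Total RNA was sequenced (KAPA RNA HyperPrep with RiboErase, NovaSeq). Per the labels and the study's methods, the authors aligned reads with STAR 2.5.3e to GRCm38, counted genes with featureCounts 1.6.0 and GENCODE M15, and tested with DESeq2 1.22.2. The deposited values are raw counts per gene, and the 2 deposited count tables held equal values. The strand setting was not given in the sources used here. Of the count columns, 10 that match no label were not used.

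A gene was tested when 4 or more of the 8 libraries held 10 counts or more, in edgeR 4.0.16 (TMM, robust quasi-likelihood F test, Benjamini-Hochberg, adjusted p under 0.05) without covariates. CPM are TMM-scaled. Limma 3.58.1 (voom) gave 95% intervals, and DESeq2 1.42.0 was an alternative. Coordinates and UTRs are GENCODE M21. Errors on log2 fold changes are SE. Scripts were tested on simulated data.

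Named genes are those within 250 kb of Mir139, target, microRNA and noncoding lists, the 5 smallest p-values per direction at a mean log2 CPM of at least 3, the 3 smallest with the Gm26917 covariate, and the extremes of each other list. Members and lists were chosen with earlier results of these data known. Replicate numbers did not pair the libraries.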

Additional observations from a re-analysis of the deposited data

Results flagged for a closer look

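In groups of 4 libraries, the gap of the highest or lowest value to its neighbour was compared with the range by Dixon's 95% critical value. Of 296 groups 16 passed, and chance alone gives about 1 in 20 groups. What set these libraries apart was not tested.

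Of the list sums, 3 had 1 WT library far from the others. The plasma cell sum was 7331 CPM in WT3 and 2971 to 3360 in the other WT libraries. The sum of the genes that the study names after miR-139 induction was 152.3 CPM in WT2 against 210.8 to 216.0, and translation initiation factors summed to 6526 CPM in WT2 against 5787 to 5818.

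Among WT values, WT2 held 655.6 CPM of mt-Rnr1 against 1.02 to 25.6, 169.6 CPM of mt-Rnr2 against 2.68 to 5.40, and 1.25 CPM of Hspa1a against 0 to 0.204. WT3 held 100.3 CPM of Grk5 against 3.64 to 14.1. WT1 held 142.5 CPM of Mmp8 against 14.8 to 20.2.

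Among Mir139KO values, KO1 stood above the rest for Camp (1188 CPM against 372.2 to 395.2), Fcnb (165.7 against 72.4 to 82.6), Ighg1 (368.1 against 169.2 to 192.6), Rny1 (1.16 against 0.239 to 0.260) and Rny3 (1.51 against 0.487 to 0.654). KO4 stood above the rest for Igkv4-68 (90.1 CPM against 8.86 to 13.2), and KO2 for Cd209a (5.89 against 5.06 to 5.16) and Hpgds (0.818 against 0.454 to 0.498).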

How the results depend on the processing

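The count of called genes was 0 in each of 21 alternative fits over at least 7 libraries, and 1 in the 4 libraries under 25% Gm26917 and 1 in the 4 above. Genes at an unadjusted p under 0.05 numbered 86. The count was 361 with no filter on low counts, 38 at a mean of at least 100 counts, 44 without immunoglobulin, haemoglobin and mitochondrial genes (11 higher and 33 lower, against 49 and 37), 536 with the Gm26917 set as a covariate, 243 with the level of Y-linked genes as a covariate, and 3279 and 558 within the sets. Leaving out 1 library in turn gave 74 to 188 (188 without WT1, 182 without WT3) and 0 to 0 called. RLE factors gave 85 and total counts 105. The cause of these moves was not tested, except that fewer or more genes were tested under the filters.

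The 95% intervals within 2-fold numbered 7289, 12533 with the set as a covariate, 12800 with the Y-linked level, and 4567 to 6785 without 1 library (4834 without WT4, 4595 without KO2, 4567 without KO3).

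The replicate numbers were used as a block as a check of pairing. The deviations of same-numbered libraries correlated at -0.635, 0.723, -0.656 and 0.515, so the libraries share only a number. The replicate block gave 0 called genes, 60 at an unadjusted p under 0.05 (48 higher and 12 lower) and 5904 intervals within 2-fold.

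Of 621 alternative values of the list medians, 612 moved by less than 1 SD, and 7 of 27 lists kept their sign in all alternatives: neutrophil, plasma cell, T and NK cell, microRNA machinery, immediate early, phosphodiesterases, and the genes named after miR-139 induction. Of 118 named genes 45 kept their sign throughout. Depth limits low genes: of the genes under a mean log2 CPM of 3, 32.4% had intervals within 2-fold.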

Other observations

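Zc3h7a, a zinc finger gene outside the naming rule that was chosen after its values were seen, was one of the most uneven abundant genes. It had 42980, 406451, 15481 and 206234 counts in the WT libraries and 95703, 10460, 27959 and 8685 in the Mir139KO libraries. High and low libraries occurred in both genotypes and both Gm26917 sets, and the log2 fold change was -1.78 ± 1.119 (edgeR, unadjusted p = 0.144).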
